A study of Mus musculus with 18 samples.

Results

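Forkhead (Fox) genes were taken as all protein-coding mouse genes whose symbol is Fox followed by a letter from a to s and a number, which gave 44 of the 21883 protein-coding genes of the RefSeq annotation on chromosomes 1 to 19, X and Y. Binding sites of 2 limb transcription factors were set against them: a site belonged to a Fox gene when that gene was the nearest protein-coding gene and lay within 100 kb. By this rule 291 of 54941 Pitx1 sites and 39 of 10273 Tbx5 sites belonged to Fox genes. All 44 are in the counts below, and 43 are described singly or in a named group.

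The sites come from chromatin immunoprecipitation followed by sequencing (ChIP-seq) of limb buds from wild type embryos of the outbred CD1 strain, in a study of how forelimb and hindlimb development differ. Pitx1, a homeodomain protein that marks the hindlimb, was mapped in e11.5 hindlimb with the antibody homemade (960A), and Tbx5, a T-box factor of the forelimb bud, in e10.5 forelimb with the antibody homemade (NP1723). Each map is 1 sample without replicates, so the spread between samples is unknown for every value. The maps differ at once in factor, limb, stage and antibody, which cannot be told apart, and whole buds mix mesenchyme, ectoderm, vessel and entering muscle and nerve cells.

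Forkhead proteins bind DNA through a winged helix domain, and different subfamilies act in different settings: Foxa proteins open chromatin in endoderm, Foxc, Foxd, Foxf and Foxl1 pattern mesenchyme, Foxo proteins are sent out of the nucleus when insulin signalling is active, and Foxp proteins act mainly as repressors. Several Fox genes of mesenchyme lie side by side in the genome, which reflects the old linkage of Foxq1 with Foxf2 and Foxc1, and of Foxf1 with Foxc2 and Foxl1. Most Fox genes outside the Foxj, Foxk, Foxn, Foxo and Foxp subfamilies are short genes with few or no introns. Binding of a factor near a gene does not show that it controls the gene.

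The position of each site is the summit, the highest point of a deposited peak, on genome build mm10. Its score is the authors' own, taken to be −log10 q of the peak as its caller writes it, and serves here only to rank and describe sites within a list. The stretch of genome whose sites would be given to a gene is called its domain; neighbouring genes cut it short, and a long gene has a long one. Intervals in brackets are exact Clopper-Pearson 95% intervals and cover the counting of summits or genes only. They treat summits as independent, although many belong to the same gene, so intervals on summits may be too narrow. Read depth is unknown, so the lengths of the lists say nothing about how much of either factor was bound. The numbers in the peak names run to 70575 for Pitx1, of which 77.8% are present, and to 17019 for Tbx5, of which 60.4% are present. Between the first and last summit of each Fox gene, 89.8% of Pitx1 and 93.5% of Tbx5 numbers were present, beside 87.3% and 93.0% over all genes with 2 or more summits.

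Sequences at Fox start sites are shown where a summit fell on a promoter whose letters are known. RefSeq (GRCm38.p6, the assembly of mm10) gave 33 promoters for 28 of the 44 Fox genes, each taken as 250 bases before to 50 after the start site. A Pitx1 summit lay in 3 of the 33, or 9.09%, beside 8.96% of all 32851 promoters, and no Tbx5 summit did. They belonged to Foxp1, at the most upstream of its listed start sites (summit 9 bases before the start site, score 5.37), to the neural gene Foxb2 (20 bases after it, score 5.92) and to Foxd4 (64 bases before it, score 1.64). The 250 bases before the start are given 5′ to 3′ on the gene's strand, the minus strand in each case, at chr6:99520994-99521243, chr19:16873831-16874080 and chr19:24901017-24901266. Capitals mark a match to TAATC on the opposite strand.
Foxp1: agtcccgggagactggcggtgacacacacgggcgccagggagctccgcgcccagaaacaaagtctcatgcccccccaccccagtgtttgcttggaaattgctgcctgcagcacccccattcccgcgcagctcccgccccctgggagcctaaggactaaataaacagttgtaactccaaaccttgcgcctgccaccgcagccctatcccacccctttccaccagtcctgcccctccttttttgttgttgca
Foxb2: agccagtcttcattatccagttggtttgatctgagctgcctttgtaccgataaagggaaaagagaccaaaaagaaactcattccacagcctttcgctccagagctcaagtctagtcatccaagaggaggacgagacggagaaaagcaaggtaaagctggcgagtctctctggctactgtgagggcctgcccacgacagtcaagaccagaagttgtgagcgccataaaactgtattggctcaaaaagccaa
Foxd4: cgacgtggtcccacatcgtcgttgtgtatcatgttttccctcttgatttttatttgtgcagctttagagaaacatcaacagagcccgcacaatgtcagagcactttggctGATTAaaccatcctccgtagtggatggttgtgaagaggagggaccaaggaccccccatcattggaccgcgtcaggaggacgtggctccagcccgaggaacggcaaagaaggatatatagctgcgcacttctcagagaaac
The Foxp1 stretch had a GC content of 60.8% with 11 CpG, that of Foxb2 48.4% with 7 and that of Foxd4 50.8% with 12.

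Searched on both strands, TAATCC, the motif of bicoid-type homeodomains such as that of Pitx1, was in none of these 3 stretches, and neither was AGGTGT, a T-box motif. Over the same 250 bases TAATCC occurred in 2 of the 33 Fox promoters and in 6.25% of all promoters, and AGGTGT in 0 of 33 and in 11.8%. The shorter cores contained in them, TAATC and GGTGT, were searched after this result was seen: TAATC occurred in 5 Fox promoters and 19.8% of all, and GGTGT in 11 Fox promoters and 36.2% of all. The absence of these letters from a window says nothing about the factor. Fox promoters were rich in CpG, with a median of 16 and a GC content of 62.0%, beside 6 and 52.4% over all promoters.

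Fox genes more often had Pitx1 sites than genes at large. Of the 44, 36 had at least 1 Pitx1 summit, or 81.8% (67.3 to 91.8), beside 54.5% of all genes. Tbx5 summits were at 15, or 34.1% (20.5 to 49.9), beside 18.7%, and all 15 also had Pitx1 summits, where 16.8% of all genes had both. No Fox gene had Tbx5 summits alone. Pitx1 summits were at 21 Fox genes, beside 26.2% of all genes, in the authors' second, shorter Pitx1 list, and at 14, beside 18.7%, when only as many of the strongest summits were kept as the Tbx5 list holds. Within 20 kb, 6 Fox genes, or 13.6%, had a Tbx5 summit, beside 15.8%, and within 50 kb 8, or 18.2%, beside 17.4%, so the Tbx5 share stood near that of all genes at these distances. With the full lists and 100 kb, at 14 Fox genes there were 10 or more Pitx1 summits (4.68% of all genes), and at 3, Foxp1, Foxp2 and Foxn3, there were 3 or more Tbx5 summits (3.5% of all genes).

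**Figure D1:**
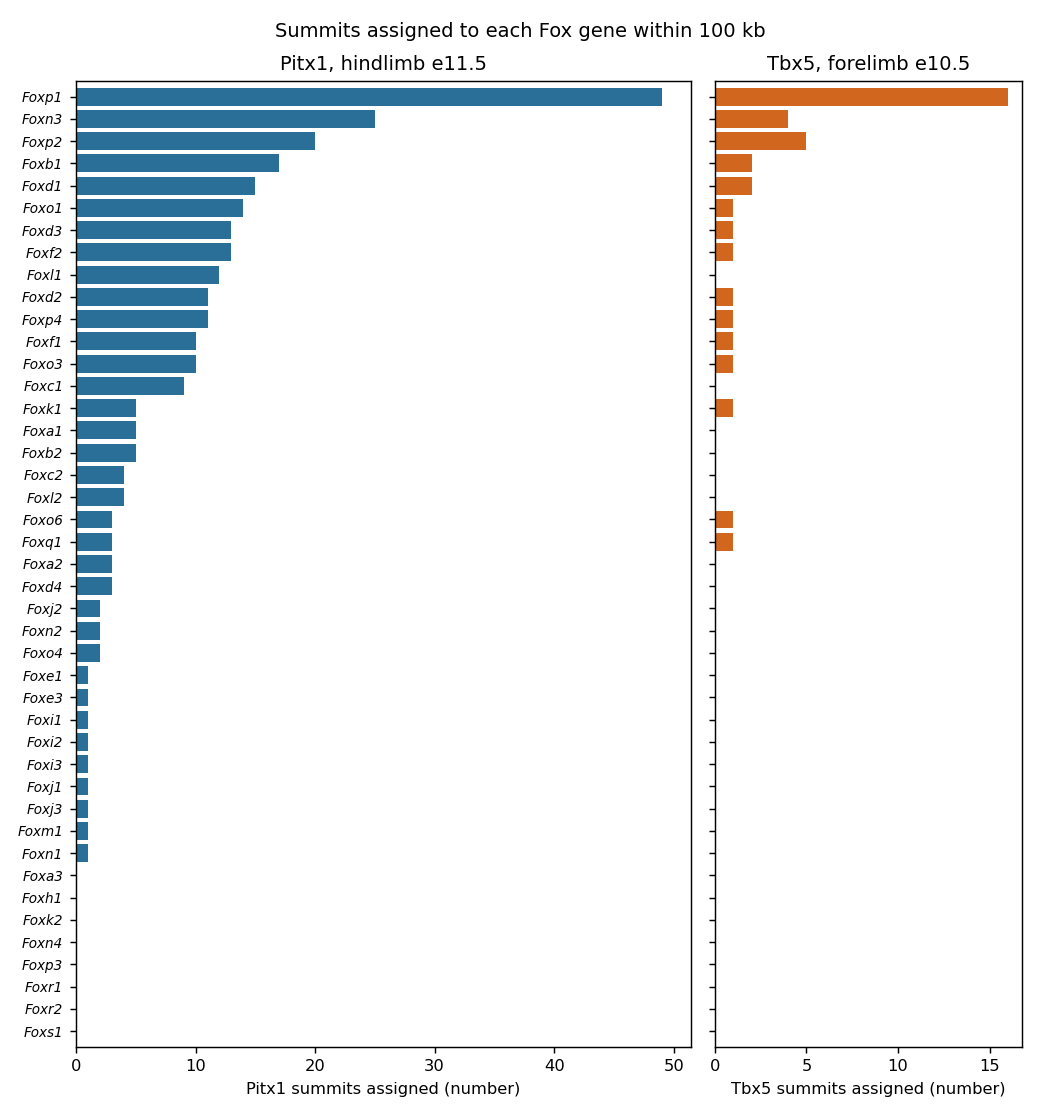
Number of Pitx1 summits (left, e11.5 hindlimb) and Tbx5 summits (right, e10.5 forelimb) assigned to each of 43 Fox genes, 1 bar per gene. Foxp1 had the highest count of both factors, 49 and 16, and the 8 genes at the bottom had none.

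The 8 genes with no summit of either factor were Foxa3, Foxh1, Foxk2, Foxn4, Foxp3, Foxr1, Foxr2 and Foxs1, which include regulators of liver, of nodal signalling and of regulatory T cells. Their domains were short, 3.80 to 60.6 kb with a median of 18.7 kb. The 21 genes with Pitx1 summits only had domains of 10.998 to 204.1 kb and 1 to 12 summits. The 15 genes with both had domains of 105.5 to 747 kb and 3 to 49 Pitx1 summits, and they were 15 of the 20 Fox genes with a domain of at least that lower length. This length was taken from the 15 genes themselves, so the 24 Fox genes with a shorter domain had no Tbx5 summit by construction.

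Summits were therefore also counted against domain length. Per 100 kb of domain, Fox genes had 5.24 Pitx1 summits, beside 2.35 over all genes, a ratio of 2.23, and 0.702 Tbx5 summits, beside 0.415, a ratio of 1.69. When all genes were sorted by domain length into 10 classes of equal size, the class means added up to 122.7 Pitx1 summits for the 44 genes where 291 were found, and to 22.5 Tbx5 summits where 39 were found. The Pitx1 count was above the mean of its class at 29 genes, or 65.9%, where 36% of all genes were, and the Tbx5 count at 14 genes, or 31.8%, where 16.4% were. Outside the class of longest domains the Tbx5 mean was at most 0.636, so there any Tbx5 summit put a gene above it. The shares of 36% and 16.4% pool all classes evenly, while the classes of longest domains held 9, 6 and 7 of the Fox genes. These shares are therefore not matched for domain length. The Pitx1 ratio fell to 1.21 when only as many of the highest-scoring Pitx1 summits were kept as the Tbx5 list holds. Without Foxp1, the Tbx5 ratio was 1.15, and the Pitx1 ratio 2.14.

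**Figure D2:**
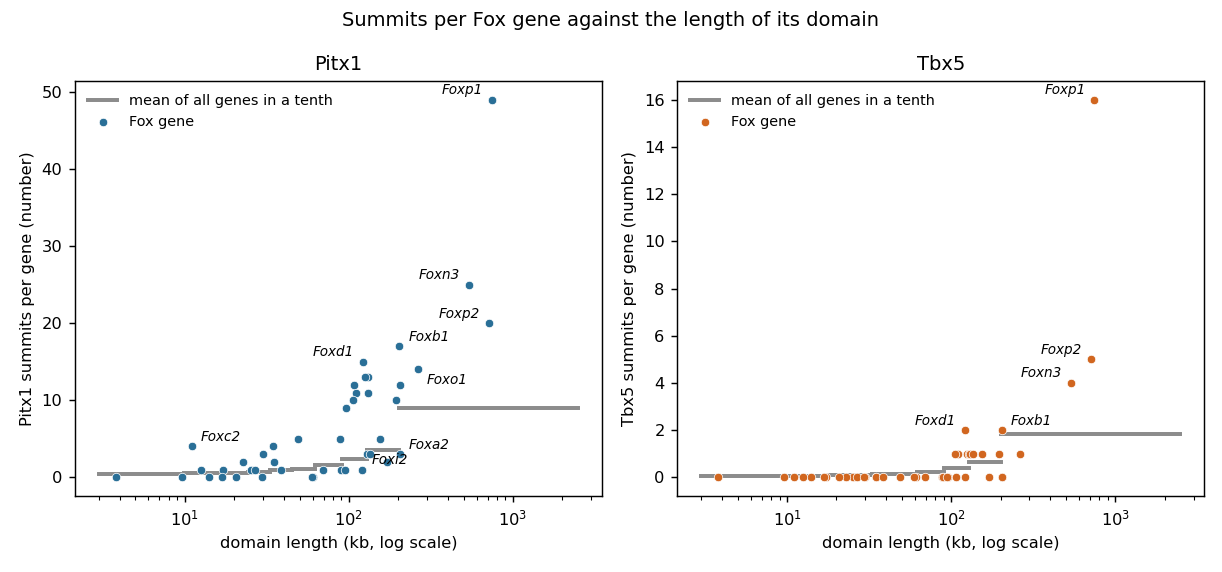
Summits per Fox gene (points) against the length of its domain in kb on a log scale, for Pitx1 (left) and Tbx5 (right), with the mean of all genes in each of 10 classes of domain length as grey lines. Foxp1, Foxn3 and Foxp2 have the longest domains and the highest counts, while Foxc2 had 4 Pitx1 summits in 10.998 kb.

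High counts were also found in other families of developmental regulators. The 19 Sox genes had 6.16 Pitx1 and 1.01 Tbx5 summits per 100 kb, and the 13 T-box genes 8.44 and 1.65. The ratios to all genes were 2.63 and 2.45 for Sox and 3.60 and 3.98 for T-box genes, above those of the Fox genes for both factors. For every Tbx5 summit the Fox genes had 7.46 Pitx1 summits, beside 5.66 over all genes, and 10.52 without Foxp1.

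Many of the Pitx1 sites at Fox genes had low scores. Their median score was 5.37 (quartiles 3.83 and 9.54), beside 6.49 (3.83 and 14.4) over all assigned Pitx1 summits. A score of 10 or more was reached by 72 of 291, or 24.7% (19.9 to 30.1), beside 35.8% over all genes, 35.1% at Sox genes and 33.8% at T-box genes. Among the strongest 10% of the list were 14 of 291, or 4.81% (2.65 to 7.94), beside 9.28% of all assigned summits, and none was among the strongest 1%, with an exact upper limit of 1.26%. The Tbx5 summits had a median score of 8.95 (quartiles 5.52 and 14.7), beside 8.29 (4.67 and 18.6). A Tbx5 score of 10 or more was reached by 16 of 39, or 41.0%, beside 42.0%, and 1 of 39 was among the strongest 10%. The second Pitx1 list held 68 of the 291, or 23.4% (18.6 to 28.7), beside 30.9% of all assigned Pitx1 summits.

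The largest group of sites was at the Foxp genes, which encode repressors of lung, brain, motor neuron and blood cell development. Foxp1, Foxp2 and Foxp4 held 80 Pitx1 and 22 Tbx5 summits, 27.5% and 56.4% of those at all Fox genes, while Foxp3, the regulatory T cell gene with a domain of 16.8 kb, held none. The group had 4.98 Pitx1 and 1.37 Tbx5 summits per 100 kb.

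Foxp1, on chromosome 6 from 98925342 to 99522746 on the minus strand, had 49 Pitx1 and 16 Tbx5 summits, of which 45 and 14 lay inside the gene. It alone held 16.8% of the Pitx1 and 41.0% of the Tbx5 summits at Fox genes. Its Pitx1 scores ran from 2.03 to 109 with a median of 5.37, and 6 of 49 were 30 or more. The strongest lay at position 99273299 (score 109), inside the gene and 6.78 kb upstream of another listed start site, 99266515, followed by 99233731 (104) and 98972578 (97.7). Its Tbx5 scores ran from 3.10 to 30.9 with a median of 7.02, the strongest at position 99013775. When the gene was split into 3 equal stretches by rising coordinate, the Pitx1 summits inside it numbered 20, 10 and 15 and the Tbx5 summits 6, 2 and 6. Both factors thus had sites along the whole gene, fewest in the middle stretch. The strongest sites differed between the factors: the Tbx5 summit nearest to the Pitx1 score of 104 had a score of 3.10, and the strongest Tbx5 summit lay 184 bp from a Pitx1 score of 5.37.

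Foxp2, a gene of speech circuits, lung and heart on the same chromosome (14901349 to 15441977), had 20 Pitx1 and 5 Tbx5 summits. Its strongest Pitx1 summit (score 69.6) lay at position 15130353. Its strongest Tbx5 summit, at position 15396671 with a score of 83.9, had the highest Tbx5 score of any Fox gene, and the nearest Pitx1 summit was 11549 bp away. The summits inside the gene were fewest at low coordinates: from low to high, the 3 stretches held 2, 9 and 7 Pitx1 and 0, 1 and 4 Tbx5 summits. Foxp4, with a span of 57.5 kb on chromosome 17, had 11 Pitx1 summits and 1 Tbx5 summit (score 6.40). A pair of its Pitx1 summits was strong, at position 47976033 (score 97.7), 51.4 kb upstream, and at 47881461 (95.3), inside the gene.

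**Figure D3:**
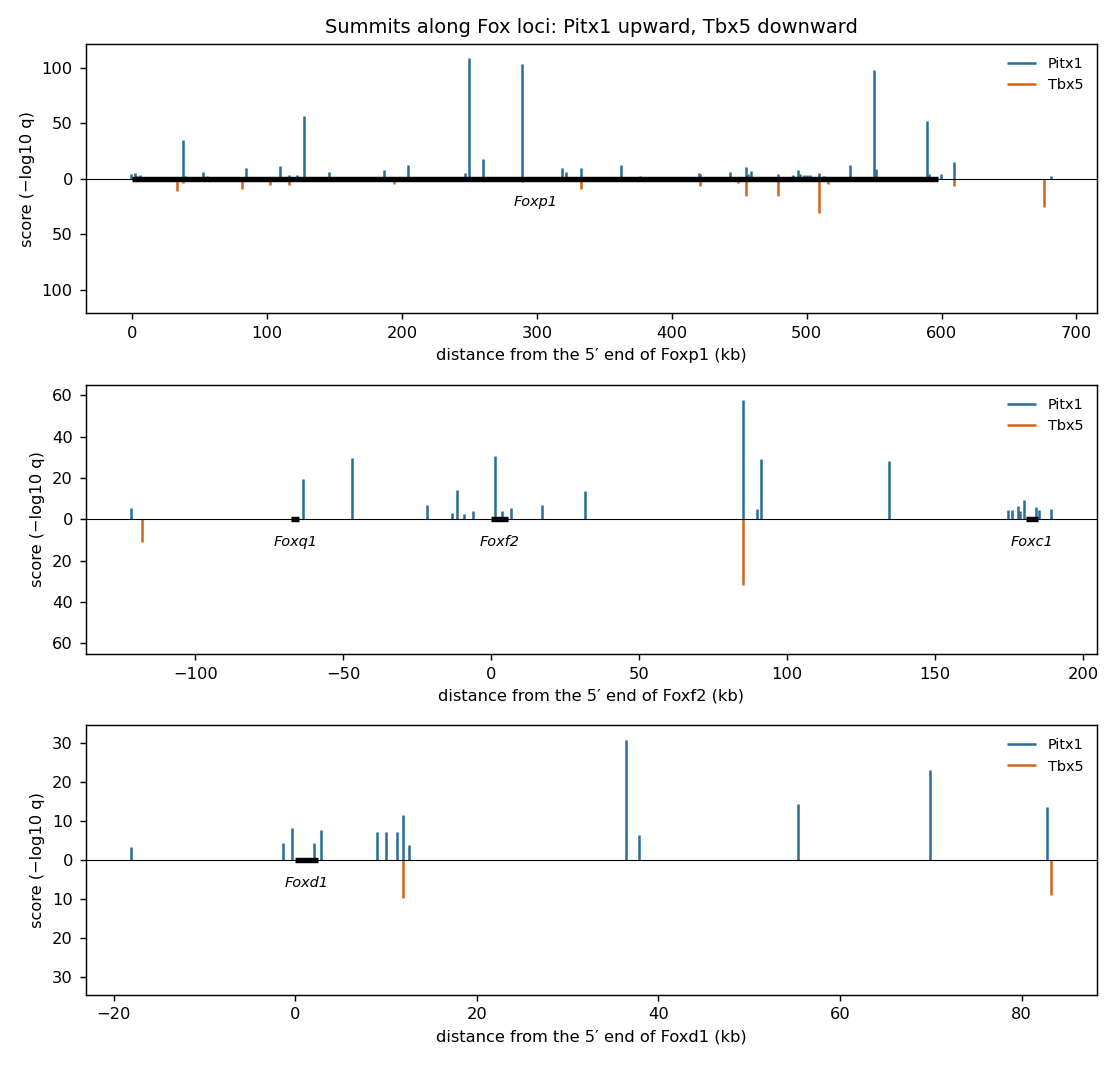
Summits along 3 Fox loci, with distance from the 5′ end of the named gene in kb on the x axis and the score (−log10 q) on the y axis, Pitx1 upward and Tbx5 downward; black bars are the genes. At Foxp1 sites are spread along the gene, at Foxf2 the highest sites of both factors stand at the same place in the gap before Foxc1, and at Foxd1 low Pitx1 sites crowd at the gene.

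Among the 6 groups by role with more than 1 gene, Pitx1 sites were densest at the 9 genes listed under mesenchyme and somites, which include Foxq1, better known from hair and stomach lining: 77 summits, or 9.37 per 100 kb, at 8 of 9 genes, and 6 Tbx5 summits, or 0.730 per 100 kb, at 5. Foxs1, with a domain of 9.62 kb, was the gene without. The cluster on chromosome 13, in the order Foxq1, Foxf2, Foxc1, held 25 Pitx1 and 2 Tbx5 summits in 357 kb. Foxf2, a hedgehog-responsive gene of palate and gut mesenchyme, had 13 Pitx1 summits and 1 Tbx5 summit. Both of its strongest summits lay in the 175 kb gap between Foxf2 and Foxc1, 79.5 kb downstream of Foxf2: Pitx1 at position 31710935 (score 57.6) and Tbx5 at 31710932 (score 31.9), 3 bp apart. That gap held 12 Pitx1 summits and 1 Tbx5 summit in all. A further Pitx1 summit (score 30.8) lay inside Foxf2 at position 31627236.

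Foxc1, a regulator of somites, eye and skeleton, had 9 Pitx1 summits and no Tbx5 summit; the strongest (score 28.1, position 31760443) lay 46.2 kb upstream, and the other 8 were inside the gene or within 10 kb of it, each with a score below 10. Foxq1 had 3 Pitx1 summits, the highest 29.9, and 1 Tbx5 summit of score 11.002.

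The cluster on chromosome 8, Foxf1, Foxc2 and Foxl1, held 26 Pitx1 summits and 1 Tbx5 summit in 224 kb, or 11.6 Pitx1 summits per 100 kb. Foxf1, a gene of lateral mesoderm and of lung and gut mesenchyme, had 10 Pitx1 summits with scores up to 14.4 and a Tbx5 summit of score 36.7 at position 120993816, 90.6 kb from the gene and 12715 bp from the nearest Pitx1 summit. Foxc2, a gene of lymphatic vessels and axial skeleton, had 4 Pitx1 summits in its short domain, or 36.4 per 100 kb, the highest density of the Fox genes. Its strongest (score 22.2) lay 0.177 kb from the gene. Foxl1, a gene of gut mesenchyme, had 12 Pitx1 summits and no Tbx5 summit, with the strongest at positions 121204004 (score 64.1, 73.4 kb away) and 121220146 (52.3, 89.5 kb away). The 3 Pitx1 summits inside Foxl1 or within 10 kb of it scored at most 5.92.

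Foxd1, a gene of kidney stroma on chromosome 13 (98354245 to 98356705, plus strand), had 15 Pitx1 and 2 Tbx5 summits, or 12.4 and 1.65 per 100 kb, which placed it in the upper 10% of its class of domain length for both factors; Foxp1 was the only other Fox gene there for Tbx5. The strongest Pitx1 summit (score 30.8) lay 34.0 kb downstream at position 98390672. Foxd2, a paralog also expressed in kidney, had 11 Pitx1 summits and 1 Tbx5 summit, with a shared site 84.5 kb downstream where Pitx1 scored 35.4 and Tbx5 16.2. Its neighbour Foxe3, a lens gene, had a single Pitx1 summit, but one of score 66.3, 16.7 kb away.

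Genes of neural and ectodermal tissue had Pitx1 sites about as dense as Fox genes overall: 53 Pitx1 summits at 10 of 11 genes, or 5.17 per 100 kb, and 3 Tbx5 summits at 2. Foxb1, a gene of hindbrain and hypothalamus, had 17 Pitx1 summits (scores up to 28.1) and 2 Tbx5 summits (13.2 and 8.29). Foxd3, a neural crest gene, had 13 Pitx1 summits (up to 17.4) and 1 Tbx5 summit of 13.2. Foxb2 had 5 Pitx1 summits, the highest 23.0, and Foxe1, Foxe3, Foxi1, Foxi2, Foxi3 and Foxn1 had 1 each. The endoderm genes Foxa1 and Foxa2 had 5 and 3 Pitx1 summits with scores of at most 11.54 and 5.92, and no Tbx5 summit. Foxl2, an ovary gene, had 4 Pitx1 summits with scores of at most 7.07, Foxd4 had 3 of at most 8.90, and Foxj1, a gene of motile cilia, had 1 of 5.37.

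The 11 genes of growth and metabolism held 65 Pitx1 and 8 Tbx5 summits, or 3.89 and 0.478 per 100 kb. Foxn3, a repressor linked to the DNA damage checkpoint, accounted for 25 and 4 of them in a domain of 536 kb. Its Pitx1 summit at chromosome 12 position 99603641, 39.97 kb upstream, had the highest Pitx1 score of any Fox gene, 111, and the Tbx5 scores at Foxn3 were 3.60 to 10.3. All 3 Tbx5 summits inside Foxn3 lay in the stretch of highest coordinates, towards the 5′ end. Foxo1 and Foxo3, effectors of insulin signalling, had 14 and 10 Pitx1 summits with scores up to 18.1 and 12.2, and 1 Tbx5 summit each. That of Foxo3, at chromosome 10 position 42276278 with a score of 39.6, lay 417 bp after the start site and was the only Tbx5 summit within 1 kb of an annotated Fox start site. Foxk1, a gene of muscle progenitors, had 5 Pitx1 summits and 1 Tbx5 summit, Foxo6 had 3 and 1, and Foxj2, Foxn2 and Foxo4 had 2 Pitx1 summits each. Foxj3 and Foxm1 had 1 each.

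The arrangement of the sites at short Fox genes was described after the counts had been seen. Among the 26 Fox genes spanning less than 10 kb, the 10 kb next to the gene held 75 Pitx1 summits, or 18.4 per 100 kb, where all 7924 genes of that size had 2.65. Inside the genes the density was 15.1, beside 5.13. It dropped to 2.69, beside 1.23, from 10 to 50 kb, and was 4.51, beside 1.24, from 50 to 100 kb. At 14 of the 26, or 53.8%, there were 3 or more Pitx1 summits inside or within 10 kb, where 4.34% of all genes of that size had as many. Among them were Foxb1 with 9, Foxc1 and Foxd1 with 8, Foxd2 and Foxd3 with 6, Foxa1, Foxb2, Foxf1 and Foxf2 with 5, Foxc2 and Foxl2 with 4, and Foxd4 and Foxl1 with 3. A score of 10 or more was reached by 2 of 4 of these summits at Foxc2, 2 of 9 at Foxb1, 1 of 5 each at Foxa1, Foxb2, Foxf1 and Foxf2, 1 of 6 at Foxd3, 1 of 8 at Foxd1, and none at Foxc1, Foxd2, Foxl1, Foxl2 or Foxd4. Counting only those scores, the 10 kb next to short Fox genes had 2.95 Pitx1 summits per 100 kb, beside 0.881. Inside the genes the excess was gone, with 1 of 14 summits, or 1.08 per 100 kb, beside 1.48. The density of such scores was 0.860, beside 0.443, from 10 to 50 kb and 1.91, beside 0.461, from 50 to 100 kb.

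The Tbx5 sites of the same 26 genes were not gathered next to the gene. Of 9 summits, none was inside a gene, 1 (Foxd1) was within 10 kb, none was from 10 to 50 kb and 8 were from 50 to 100 kb away, where the density was 1.09 per 100 kb, beside 0.271 for all genes of that size. Pitx1 density was also higher at that distance, 4.51 beside 1.24. Foxb1, Foxd1, Foxd2 and Foxf2 each had 1 Tbx5 summit within 200 bp of a Pitx1 summit. The Pitx1 pattern was not limited to Fox genes. Over genes of any length, the 10 kb next to the gene held 13.8 Pitx1 summits per 100 kb at Fox genes, 14.9 at Sox genes and 18.2 at T-box genes, beside 2.99 over all genes. Counts of 1 to 10 summits carry wide counting error, and Tbx5 densities of the short genes rest on 9 summits.

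**Figure D4:**
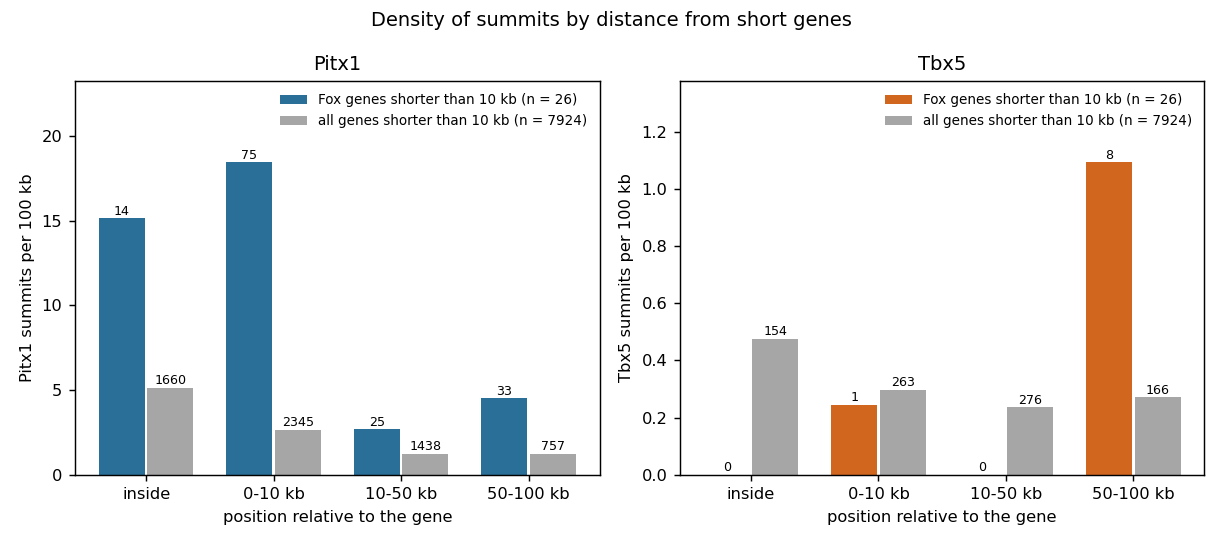
Summits per 100 kb inside and at 3 distances outside genes shorter than 10 kb, for the 26 Fox genes (coloured) and all 7924 genes (grey), Pitx1 left and Tbx5 right; the number above each bar is its count of summits. Pitx1 summits were densest inside and within 10 kb of the Fox genes, and 8 of 9 Tbx5 summits lay 50 to 100 kb away.

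Pitx1 summits at Fox genes stood close together, by a distance of 2 kb that was chosen after the data were seen. Another Pitx1 summit lay within 2 kb of 119 of 291, or 40.9% (35.2 to 46.8), beside 27.6% over all genes, 42.4% at Sox genes and 61.7% at T-box genes. At short Fox genes the share was 51.0%, beside 34.3% for all genes of that size. These shares were not adjusted for the density of Pitx1 summits, which was also higher at Fox, Sox and T-box genes than over all genes. None of the 39 Tbx5 summits had another within 2 kb, with an exact upper limit of 9.03%, beside 8.92% over all genes, so a lower share at Fox genes was not detectable with 39 summits. Of all Pitx1 summits at Fox genes, 22.3% lay 1 to 10 kb outside the gene and 11.7% within 1 kb of an end, beside 9.12% and 16.0% over all genes. Without the long genes Foxp1, Foxp2 and Foxn3, the shares were 31.5% and 16.2% of 197 summits, so the share near an end was then close to that of all genes.

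Of the Tbx5 summits at Fox genes, 14 of 39, or 35.9% (21.2 to 52.8), were shared sites with a Pitx1 summit within 200 bp, beside 38.4% of all assigned Tbx5 summits. The share was 17.9%, beside 21.9%, with the second Pitx1 list and 10.3%, beside 16.6%, with the Pitx1 list cut to the Tbx5 length. With scores of 10 or more in both lists it was 12.5%, beside 32.7%, but of only 16 Tbx5 summits at Fox genes. Counting error is wide for these shares, and no interval was computed for them. In the full lists the shared sites were 4.81% (2.65 to 7.94) of the Pitx1 summits at Fox genes, beside 6.78%. Foxp1 had 5 of the 14, Foxp2 had 3, and Foxb1, Foxd1, Foxd2, Foxf2, Foxn3 and Foxo3 had 1 each. The summits were 3 to 191 bp apart with a median of 43 bp, and the nearest pair outside the limit, at Foxp1, was 253 bp apart. The shared Tbx5 summits had a median score of 11.4 and the 25 others 7.02.

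Scores at the shared sites are given side by side and were not compared between the lists. At Foxo3, 10 bp apart, Tbx5 scored 39.6 and Pitx1 4.32. Inside Foxn3, summits 42 bp apart scored 6.40 for Tbx5 and 55.5 for Pitx1. At Foxd1, 9.45 kb downstream, Tbx5 scored 9.62 and Pitx1 11.54. Of all 39 Tbx5 summits, 6, or 15.4%, had the nearest Pitx1 summit beyond 200 and within 500 bp, beside 9.61% over all genes. The distance over all 39 had a median of 485 bp, beside 600.5 bp.

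**Figure D5:**
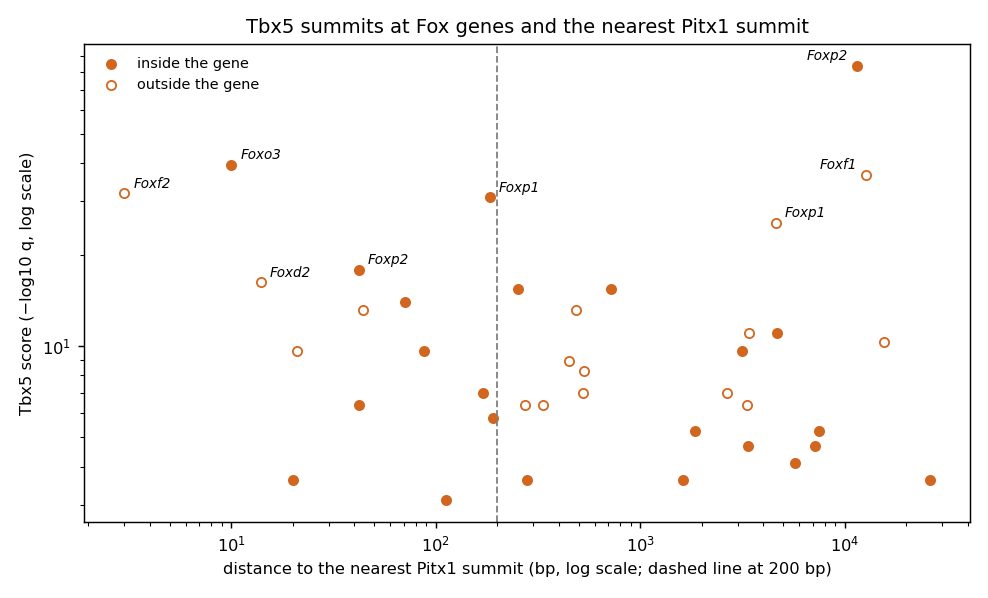
Each of the 39 Tbx5 summits at Fox genes by its distance to the nearest Pitx1 summit (x axis, bp, log scale) and its score (y axis, −log10 q, log scale); filled points are inside the gene, open points outside. The 14 points left of the dashed line at 200 bp are the shared sites, and the highest Tbx5 score, at Foxp2, lies far to the right.

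The 100 kb limit left out some strong sites. Of the assigned sites, the farthest lay 94.0 kb (Pitx1) and 90.6 kb (Tbx5) from their gene, and the nearest beyond the limit lay 103 kb from Foxf1 with a Pitx1 score of 8.28. Up to 200 kb, Foxl1 had 11 more Pitx1 summits, the strongest at chromosome 8 position 121300735 with a score of 257.5. That summit was among the strongest 1% of the Pitx1 list, which starts at a score of 157. Foxl1 also had 2 Tbx5 summits there, of which the stronger scored 23.7 and lay 112 bp from a Pitx1 score of 110. Foxd3 had 1 more of each factor, 23 bp apart and 114 kb from the gene, with scores of 82.2 for Pitx1 and 19.5 for Tbx5. Foxo1 had 4 more Pitx1 summits (up to 88.1) and Foxd2 had 2 (up to 66.2).

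The genes of proteins known to work with forkhead factors were counted in the same way. Of 20 such genes, Pitx1 summits were found at 19, where 54.5% of all genes had one, and Tbx5 summits at 11, where 18.7% had one. Their domains were long, with a median of 179 kb, and the densities per 100 kb were 2.12 (Pitx1) and 2.32 (Tbx5) times those of all genes. Tle3, which encodes a Groucho corepressor, had 18 Pitx1 and 11 Tbx5 summits, of which 7 Tbx5 summits were shared. Tle4, another of that family, had 26 and 5. Nfatc1 and Nfatc2, which encode calcium-regulated partners of Foxp proteins, had 20 and 14 Pitx1 summits, with 1 and 2 Tbx5 summits. Sgk1, whose kinase phosphorylates Foxo proteins, had 13 Pitx1 summits and no Tbx5 summit, and Ctbp1 had none of either.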

How the data were processed

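Summit lists of 1 Pitx1 and 1 Tbx5 ChIP-seq sample were used, and the other samples of the series were not analysed here. The authors' deposited score was taken as a −log10 q-value, since the peak names contain macs2; its lowest values were 1.31 (Pitx1) and 1.42 (Tbx5). MACS2 2.1.1.20160309, HOMER, Bowtie2 2.2.6 and Bowtie 1.1.2 on build mm10 are listed, per the submitters' processing notes, without their roles. The sources used here do not give the control, filters, pooling or numbers of reads; Tbx5 peak names carry "rep2". A second deposited Pitx1 list of 17783 summits, all in the longer list, carries a further score of the authors and 2 other deposited columns, none of them explained or used.

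Each summit went to the nearest protein-coding gene within 100 kb of RefSeq GRCm38.p6. Where genes overlap (5 Fox genes, Foxa1, Foxh1, Foxm1, Foxn3 and Foxp3), a summit inside several went to the shortest. This assigned 44784 Pitx1 and 7916 Tbx5 summits. Upstream or downstream is given where RefSeq promoters give the strand. With 1 sample per factor no test was run. Genes named in full had 10 Pitx1 or 3 Tbx5 summits, a shared site, or a top density. The members, lists and groups of genes were chosen with earlier results of these data known. Python 3.11.15, numpy 2.4.6 and pandas were used, and the assignment was tested on simulated data. 1 Fox gene and 1 partner gene are in the counts but are not reported here.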

Additional observations from a re-analysis of the deposited data

How the results depend on the processing

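Of 53 alternatives computed for the 8 main results on Fox genes, 37 stayed close to the reported value and 16 moved. Counts, medians and shares cannot turn negative, but their standing beside all genes turned in some alternatives. Within 20 kb the Tbx5 share of Fox genes was 13.6%, beside 15.8% of all genes, where 100 kb gave 34.1%, beside 18.7%. In the main setting the shared percentage was 35.9, beside 38.4. It was 40.7, beside 37.7, with a 20 kb window and 59.0, beside 54.2, with 1000 bp as the limit. With only the 10273 highest-scoring Pitx1 summits, 14 Fox genes had a Pitx1 summit, 9 had both factors, the Pitx1 density ratio was 1.21, the median Pitx1 score 43.9 and the shared percentage 10.3. The second Pitx1 list left 21 genes, a median score of 13.6 and 17.9% shared. Scores of at least 10 gave medians of 17.0 (Pitx1) and 15.8 (Tbx5) and 12.5% shared, by construction for the medians. Windows of 20 and 50 kb left 6 and 8 genes with Tbx5, all of them with Pitx1 too, and 1000 bp as the limit for sharing gave 59.0%. The Pitx1 density ratio was 1.54 to 2.57 under the other alternatives and the Tbx5 ratio 1.15 to 1.86, the lowest without Foxp1, which was left out after its share was seen. Of 112 alternatives for counts at single genes, 50 moved. Shorter lists and windows can only lower the number of genes with a summit, and a wider limit can only raise the shared percentage. The median score of the highest-scoring summits alone is likewise higher by construction. The cause of any other change was not tested. Read depth is unknown. No paired analysis was possible because each factor has 1 sample, so no replicate could be left out either.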
